A study of Arabidopsis thaliana with 6 samples.

Results

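*TCP15* and 7 Aux/IAA genes were followed in *Arabidopsis thaliana* inflorescences, the flowering shoot apices with their buds and flowers. They are the 8 of 13356 genes with a probe set of their own whose symbol joins HB, WOX, TCP, GATA, ARF, IAA or SPL to a number. The pattern was meant to gather homeobox, TCP, GATA, auxin response and SPL regulators, and 147 genes of the RefSeq table of assembly TAIR10.1 fit it. In the platform annotation used here 0 HB, WOX, GATA, ARF and SPL genes had such a probe set, so the data speak of Aux/IAA genes and of *TCP15*, and those 5 families were not analysed here. Each of the 8 genes had 1 probe set, a set of oligonucleotides matched to its transcript, so no choice between probe sets arose.

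The study set 3 arrays of the mutant *top1α-2* against 3 arrays of the wild type, both in the accession Landsberg erecta, and describes the replicates as biological. All plants grew at 23°C under continuous light. The mutated gene encodes DNA topoisomerase 1, an enzyme that removes the torsional stress arising ahead of RNA and DNA polymerases, and the comparison asks which transcripts differ without its normal activity. Neither plant age nor the stage of the harvested buds is stated in the labels. The probe set of the mutated gene is unnamed here, so it gave no check of the labels.

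Auxin is a plant hormone that sets up the position and growth of floral organs. Aux/IAA proteins repress auxin response factors, the transcription factors that switch auxin genes on. When auxin rises, a short stretch of the Aux/IAA protein, the degron, is bound by an F-box receptor and the repressor is destroyed. A few Aux/IAA proteins lack this degron and are long-lived. TCP proteins are plant transcription factors that control cell proliferation. *TCP15* belongs to class I of this family and acts with its close relative *TCP14* in young stems, leaves and flowers, where it also bears on the development of the gynoecium.

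*TCP15* was higher in *top1α-2* inflorescences, by 1.34-fold, and it alone of the 8 genes passed the test. The 7 Aux/IAA genes were not called in either direction. Values are log2 MAS5 signals, a summary of the probes of a probe set after background correction within the array, and differences are *top1α-2* minus wild type. A gene was called higher or lower where limma, fitted to all 22746 probe sets other than controls, gave an adjusted p under 0.05. Thus 1 of 8 genes was called higher, which is 12.5%, while over all probe sets 3.40% were called higher and 5.86% lower, 9.26% in either direction. The share rests on 1 gene of 8, and nothing about the families is read from it. The median difference was 0.16 over the 8 genes, 0.02 over the 7 Aux/IAA genes and −0.003 over all probe sets. Leaving out 1 array moved the median of the 8 genes to between 0.03, without wild-type replicate 3, and 0.34, without wild-type replicate 2. It was 0.29 without *top1α-2* replicate 2. The median of the 7 Aux/IAA genes ran from −0.28 to 0.32 without the same wild-type arrays.

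*TCP15* (AT1G69690) had log2 signals of 10.15, 10.13 and 10.22 on the *top1α-2* arrays, against 9.72, 9.61 and 9.89 on the wild-type arrays. The lowest mutant array lay 0.24 above the highest wild-type array, so the groups did not overlap. The mutant mean was 10.17 ± 0.05 and the wild-type mean 9.74 ± 0.14 (SD, n = 3 each). *TCP15* rose by 0.43 on the log2 scale (SE 0.11, 95% interval from 0.19 to 0.66), with limma's adjusted p at 0.0312. This is a small change among those called, since the median of the probe sets called higher was 0.67 and 6.86% of them had a smaller difference than *TCP15*.

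The call of *TCP15* was lost in 6 of 12 alternative settings. Its direction was kept in all 12, but since its groups did not overlap, leaving out 1 array could not have reversed it. When 1 array was left out the log2 difference stayed between 0.36 and 0.50. The limma adjusted p was 0.0853, 0.0791 and 0.125 without *top1α-2* replicate 1, 2 and 3, and 0.0629 and 0.074 without wild-type replicate 1 and 2, so each of these 5 omissions ended the call. Without wild-type replicate 3 it was 0.0349. With a variance prior that does not follow the signal it was 0.146.

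**Figure D1:**
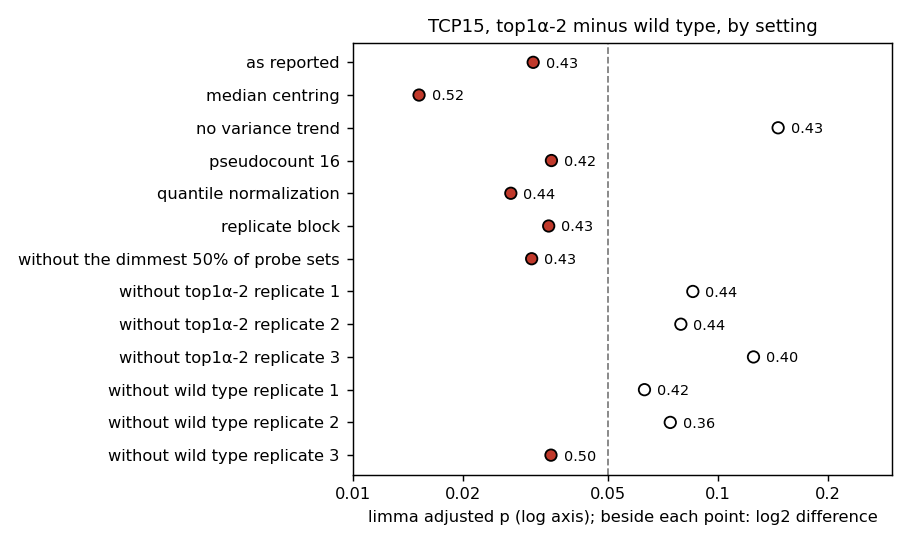
Adjusted p of *TCP15* on a log axis, with 1 row per setting and the log2 difference, *top1α-2* minus wild type, beside each point. Filled points lie under the threshold of 0.05, drawn as a dashed line, and open points above it. The difference ranges from 0.36 to 0.52, and the adjusted p from 0.0152 after median centring to 0.146 without the variance trend.

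Among the Aux/IAA genes, *IAA18* and *IAA29* encode proteins with the degron. *IAA18* (AT1G51950), which affects the placement of cotyledons and the formation of lateral roots when its product is stabilised, had log2 signals of 9.32, 9.41 and 9.65 in *top1α-2*, against 9.10, 9.13 and 9.28 in the wild type. All 3 mutant arrays lay above all 3 wild-type arrays, by a margin of 0.04. Their difference was 0.29 (SE 0.12) on the log2 scale. Its limma p was 0.0372 before adjustment and 0.182 after it, and *IAA18* was not called.

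*IAA29* (AT4G32280), known in seedlings for its response to shade and warmth, was the dimmest of the 8 genes. Its log2 signals were 3.65, 4.49 and 4.76 in *top1α-2*, against 5.06, 2.75 and 1.52 in the wild type. The wild-type arrays alone spanned 3.54, from below to above every mutant array. The log2 difference of 1.19 had an SE of 0.90, and limma's adjusted p was 0.48. It was 2.16 without wild-type replicate 1 and 0.40 without wild-type replicate 3, at adjusted p of 0.165 and 0.832.

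**Figure D2:**
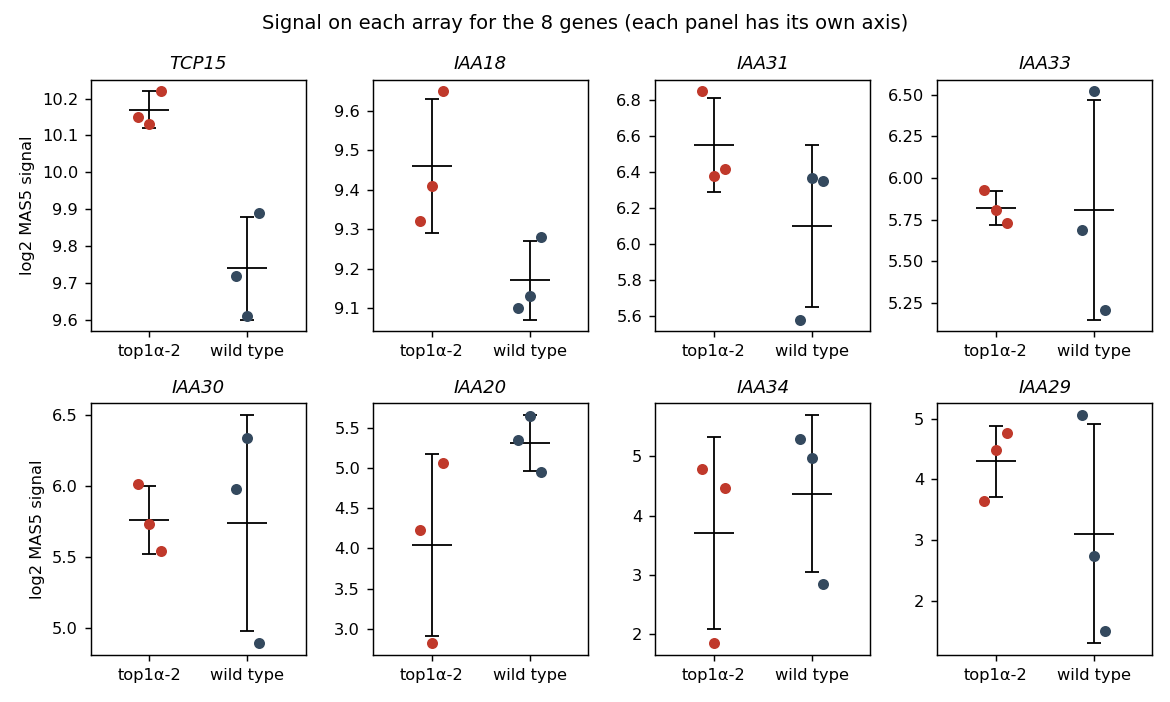
Log2 MAS5 signal of the 8 genes on each array, *top1α-2* on the left and wild type on the right of each panel, with points for arrays and a bar for the mean with its SD (n = 3 each). Each panel has its own axis. The groups are apart in *TCP15*, *IAA18* and, by 0.01, *IAA31*, and overlap in the other 5 genes.

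The products of *IAA20*, *IAA30*, *IAA33* and *IAA34* lack the degron, and that of *IAA31* carries an altered one. Of these 5 genes 0 were called, 3 had positive and 2 had negative differences, and 4 had overlapping groups. *IAA20*, whose overexpression disturbs root gravitropism and vascular patterning, had the lowest difference of the 8 genes. *IAA20* (AT2G46990) had log2 signals of 4.23, 2.82 and 5.06 in *top1α-2*, against 5.35, 5.64 and 4.95 in the wild type. Mutant replicates 1 and 2 lay below the wild-type arrays, and mutant replicate 3 lay among them. *IAA20* thus had a log2 difference of −1.28 (SE 0.63) with a 95% interval from −2.67 to 0.11, and limma's adjusted p was 0.256. Leaving out 1 array gave differences between −1.79 and −0.67.

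*IAA30*, the closest relative of *IAA20*, acts in embryos downstream of the MADS-box factor AGL15. *IAA30* (AT3G62100) had log2 signals of 6.01, 5.73 and 5.54 in *top1α-2*, against 5.98, 6.34 and 4.89 in the wild type. Its mutant values lay within the range of its wild-type values. A log2 difference of 0.02 resulted, with a 95% interval from −0.94 to 0.99 and limma's adjusted p at 0.982. Whether *IAA20* and *IAA30* differ in their change was not tested.

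*IAA31*, like *IAA20*, disturbs gravitropism when overexpressed. *IAA31* (AT3G17600) had log2 signals of 6.85, 6.38 and 6.42 in *top1α-2*, against 5.58, 6.37 and 6.35 in the wild type. The groups did not overlap, but by 0.01 alone, and wild-type replicate 1 was 0.77 below the next array. On the log2 scale the difference was 0.45 (SE 0.33), with limma's adjusted p at 0.461. Without wild-type replicate 1 it was 0.19.

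*IAA33* (AT5G57420) acts in the stem cell niche of the root tip. Its log2 signals were 5.93, 5.81 and 5.73 in *top1α-2*, against 5.69, 6.52 and 5.21 in the wild type. As in *IAA30*, the mutant arrays were close together, with an SD of 0.10, and the wild-type arrays spread around them, with an SD of 0.66. The means differed by 0.02 on the log2 scale, with a 95% interval from −0.88 to 0.91 and limma's adjusted p at 0.986.

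*IAA34* acts in the apical hook of seedlings. *IAA34* (AT1G15050) had log2 signals of 4.79, 1.84 and 4.47 in *top1α-2*, against 5.30, 4.97 and 2.85 in the wild type. In each genotype 1 array, mutant replicate 2 and wild-type replicate 3, lay far below the other two. The log2 difference was −0.67 (SE 0.93), with limma's adjusted p at 0.728, and it was 0.26 without mutant replicate 2.

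**Figure D3:**
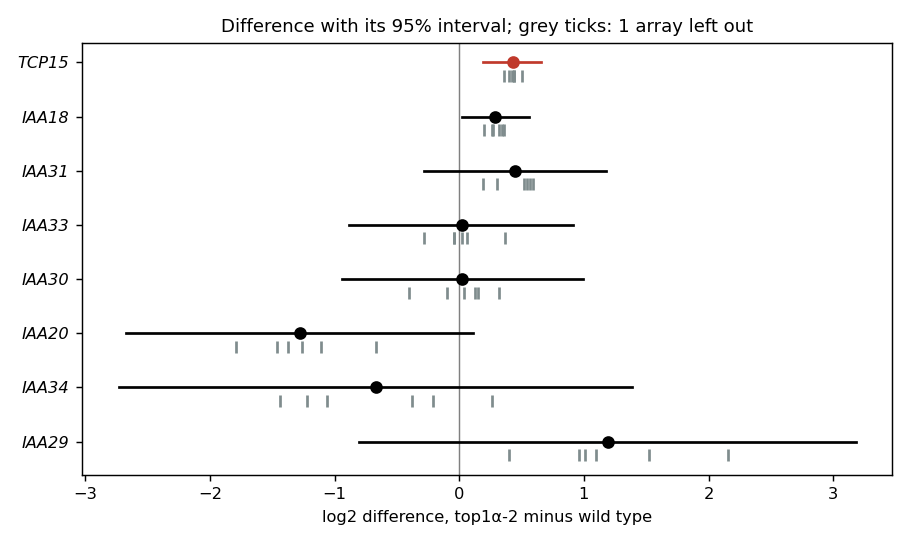
Log2 difference, *top1α-2* minus wild type, of the 8 genes in the order of their mean signal, the brightest at the top. Points with bars are the difference and its 95% interval, unadjusted for the number of tests, in red for the called *TCP15*, and grey ticks are the values with 1 array left out. The intervals of *TCP15* and *IAA18* lie above 0, and those of *IAA34* and *IAA29* are the widest.

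The spread between arrays differed among these genes with their signal. *TCP15* and *IAA18* were brighter than 84.8% and 76.4% of all probe sets, and the other 6 genes lay below the median of 7.73, brighter than 13.2% to 33.8%. Signals of different probe sets are not amounts of transcript and set no order of expression among the genes. Pooled over the genotypes, the SD between arrays was 0.11 for *TCP15* and 0.14 for *IAA18*, and between 0.37 for *IAA31* and 1.48 for *IAA34* among the 6 dim genes. The median SD was 0.17 over the brighter 50% of all probe sets and 0.55 over the dimmer 50%. In the brighter 50%, 5.69% of probe sets were called higher and 7.55% lower, and in the dimmer 50% 1.11% and 4.18%. In either direction this makes 13.2% of the brighter and 5.29% of the dimmer 50%, and the calls among the 8 genes were 1 of the 2 brighter and 0 of the 6 dimmer ones. For *IAA29* and *IAA34* the 95% intervals ran from −0.80 to 3.18 and from −2.73 to 1.39, and both include 0 as well as changes of more than 2-fold.

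**Figure D4:**
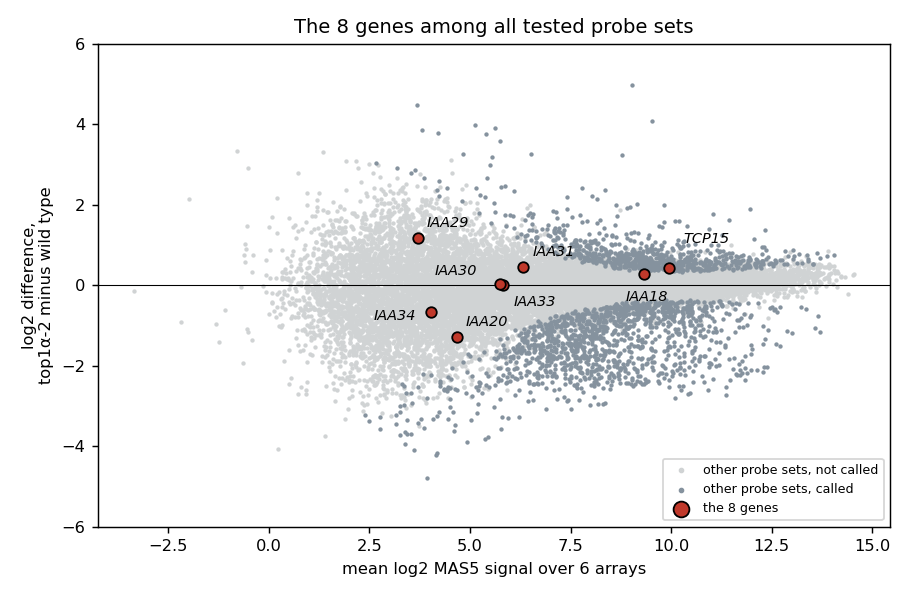
Log2 difference, *top1α-2* minus wild type, against the mean log2 signal over 6 arrays, with 1 point for each of the 22746 tested probe sets and the 8 genes in red. *TCP15* lies near the lower edge of the probe sets called higher, and 6 of the 8 genes lie at signals below 7.73, where uncalled probe sets scatter widely.

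Groups that did not overlap were found in 3 of the 8 genes, *TCP15*, *IAA18* and *IAA31*, or 37.5%, each with the mutant above. The share over all probe sets was 28.3%, of which 13.7% had the mutant above and 14.5% below.

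Other auxin genes were taken by a pattern over gene symbols and synonyms, which gave 13 genes with values. Of these 0 were called higher, 2 were called lower and 11 were not called, with a median difference of −0.30. Over all probe sets 3.40% were called higher and 5.86% lower, with a median of −0.003. In the brighter 50%, 7.55% were called lower. Both called genes lie there, and the uncalled *WES1* is the only other of the 13 genes that does. With 2 called genes of 13, nothing about auxin genes as a group is read from these counts. The 2 called genes, *GH3.17* and *GH3.3*, encode enzymes that attach amino acids to auxin. The other measured genes of the GH3 family, *WES1*, *GH3.9* and *GH3.1*, were not called. *WES1* and *GH3.9* did not share the fall of the called genes, with differences of 0.05 (SE 0.18) and 0.25 (SE 0.17). The dim *GH3.1* had a difference of −0.08, but its SE of 0.57 is too wide to tell a fall of that size from none. *GH3.17* had log2 signals of 8.60, 8.55 and 8.65 in *top1α-2*, against 9.47, 9.17 and 9.27 in the wild type, without overlap. It fell by 0.70 (SE 0.12), with limma's adjusted p at 0.00441. *GH3.3* fell by 0.65 at an adjusted p of 0.0253, and its call was lost without *top1α-2* replicate 2, *top1α-2* replicate 3 or wild-type replicate 3, at up to 0.105. The genes not called were *WES1*, *GH3.1*, *GH3.9*, *YUC2*, *YUC4*, *YUC6*, *YUC11*, *PID2*, *WAG2*, *LBD16* and *LBD29*. Among them, the *YUC* genes encode enzymes of auxin synthesis. *YUC2*, *YUC6* and *YUC4* had differences of −0.72, −0.36 and −0.30 (SE 0.28, 0.26 and 0.43). The dim *YUC11* had 0.32 (SE 0.92).

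Homeobox genes under other symbols were measured through *PHV* and *HAT2*, both uncalled and named after their values were seen. *PHV*, which specifies the upper side of leaves and floral organs, had log2 signals of 9.33, 9.45 and 9.19 in *top1α-2*, against 9.16, 8.94 and 8.96 in the wild type, a difference of 0.30 at a limma adjusted p of 0.157. *HAT2*, a gene induced by auxin, had 8.58, 8.47 and 8.97 in *top1α-2*, against 9.35, 9.27 and 8.80 in the wild type, a difference of −0.47 at an adjusted p of 0.144. The groups were apart in *PHV* and overlapped in *HAT2*.

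Markers of pollen, anthers and green tissue moved with the genotype. Over all probe sets 5.86% were called lower and 3.40% higher. Of 26 named pollen and pollen tube markers 16 were measured, and of these 13 were called lower and 0 higher. The summed unlogged signal of the 16 was 3478 to 3853 in *top1α-2* and 8432 to 12624 in the wild type. By the smallest p, the 13 called were led by *PLIM2a*, *AT59*, *ANX2* and *MGH3*, with log2 differences of −2.20, −2.93, −2.26 and −2.24. Of 13 named anther and tapetum markers, 4 were measured. *ATA27* and *SPOROCYTELESS*, listed as *SPL*, were called lower and 0 were called higher. The summed signal of the 4 was 5473 to 7302 in *top1α-2* and 12581 to 14155 in the wild type. *ATA27* makes up most of this sum, with mean log2 signals of 12.40 in *top1α-2* and 13.60 in the wild type. *EMS1*, the next brightest, was not called, at 8.99 and 9.30. Of 15 named green tissue markers, 4 were measured. *LHCB4.2*, *PSBW* and *PORB* were called higher and 0 were called lower. The summed signal of the 4 was 30880 to 37271 in *top1α-2* and 18355 to 25406 in the wild type. *RCA*, the brightest of them, was not called, with mean log2 signals of 14.13 in *top1α-2* and 13.66 in the wild type. Of 8 named vascular and meristem markers only 1 was measured, *CLV3*, a marker of the stem cells of shoot and floral meristems. *CLV3* was dim, at 1.39 ± 0.26 on *top1α-2* arrays and 1.83 ± 0.43 on wild-type arrays (SD, n = 3 each). It was not called, and its groups overlapped. The part of these marker changes in the difference of *TCP15* was not tested. In whole inflorescences, fewer cells of a type and less RNA per cell cannot be told apart. An actin control meant to read RNA integrity had a 3′ minus 5′ log2 signal of 4.03 ± 0.07 on *top1α-2* arrays and 3.57 ± 0.19 on wild-type arrays (SD, n = 3 each), without overlap. The actin genes *ACT11* and *ACT12* were called lower, with differences of −0.61 and −1.38. Whether RNA integrity or the actin transcripts present moved this control was not tested, nor was its part in the results.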

How the data were processed

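Total RNA of inflorescences was labelled with biotin and hybridised to Affymetrix arrays, 3 of *top1α-2* and 3 of the wild type. The deposited values are log2 signals, made with affy and MAS5 per the submitters' processing notes, with no versions stated. By the values, each array was scaled to a mean unlogged signal of 500 after the highest and lowest 2% of probe sets were left out. No detection calls were used, so a low signal is not absence, and the number of arrays limits the precision.

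Of 22810 probe sets, 64 controls were set aside. The other 22746 were fitted with limma 3.58.1 in R 4.3.3 (lmFit, eBayes with a trend, genotype alone) and adjusted by the Benjamini-Hochberg method. The platform annotation names 1 gene for 13513 probe sets and several for 503, and 8730 are unnamed here. By gene identifier, 13436 probe sets of a single gene were found in the RefSeq table of TAIR10.1, among them all 8 members. Lists were matched by symbol or synonym; *REV7* and formate dehydrogenase matched by symbol alone and were left out. Epidermis markers and the list of GATA partners and miRNA genes had 0 measured members. The members and lists were chosen with earlier results of these data known. The naming rule took called members and, per family, the brightest, highest and lowest; the remaining members are given so that each is accounted for. Of other lists it took at most 4 called genes by the smallest p. Probe sets of close relatives can share signal.

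The fit was tested on simulated data for 22746 probe sets, drawn from the observed means and SDs. Changes of 0.5 on the log2 scale were called in 11 of 50 probe sets, and changes of 1.0 in 37 of 50. Changes of 1.5 and 2.0 were called in 47 and 45 of 50. All changed probe sets were from the brighter 50%, so the simulation does not cover the 6 dim genes. Far fewer probe sets were changed than the 2107 called in the data, which makes the adjustment stricter in the simulation. These counts therefore do not give the share of real changes that the fit would call. Replicates share numbers between genotypes, and the deviations of same-numbered arrays correlated at 0.095, 0.089 and 0.208. Not all exceed 0.1, so the numbers were not taken as pairs. The alternatives were median centring, quantile normalization, a pseudocount of 16, leaving out the dimmest 50%, no variance trend, a replicate block, all single-gene probe sets of a gene, and each array left out.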

Additional observations from a re-analysis of the deposited data

Results flagged for a closer look

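The 3′ minus 5′ log2 signal of an actin control, a measurement outside the comparison of genes, was 0.46 higher in *top1α-2*, where it was 3.95 to 4.09, than in the wild type, where it was 3.42 to 3.79.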

How the results depend on the processing

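The count of genes called higher was 1 as reported and 0 without the variance trend, and 0 to 1 with single arrays left out. The cause was not tested. The count called lower was 0 under each alternative run. *TCP15* kept its call in 6 of 12 alternatives. It kept its direction in all 12, which leaving out 1 array could not change, since its groups did not overlap. With a replicate block it had an adjusted p of 0.0344 and the count called higher was 1, and 6 of 6 arrays correlated best with the same-numbered array of the other genotype, a hint from the data and not the design. With single arrays left out, *IAA30*, *IAA33* and *IAA34* changed sign, with ranges of −0.40 to 0.32, −0.28 to 0.37 and −1.44 to 0.26. With a pseudocount of 16, *IAA30* and *IAA33* had −0.00403 and −0.00378. The highest and lowest differences shrank with it, from 1.19 to 0.39 for *IAA29* and from −1.28 to −0.72 for *IAA20*. The median of the 8 genes, 0.16 as reported, was 0.25 after median centring and 0.24 after quantile normalization. Over all probe sets the median rose too, from −0.003 to 0.09 and 0.06. Before this, the array medians were 7.65 to 7.73 in *top1α-2* and 7.74 to 7.85 in the wild type. With the dimmest 50% left out the median of the members was 0.36, over *TCP15* and *IAA18*, which alone remained. *GH3.3* lost its call after median centring, at 0.0593, and without the variance trend, at 0.159. Over all probe sets, 773 were higher and 1334 lower, against 1153 and 1167 after median centring, 209 and 633 without the variance trend, and 357 to 794 and 975 to 1335 with single arrays left out. The planned medians of the HB, WOX, GATA, ARF and SPL families were not run, since they had 0 measured genes. Leaving out an array leaves 2 in its group, and dim signals limit 6 of the 8 genes.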

Other observations

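A search of gene names for auxin and homeobox words, made after the values were seen, added 3 genes. *IAGLU*, which encodes an enzyme that attaches glucose to auxin, had log2 signals of 6.73, 7.27 and 6.80 in *top1α-2*, against 8.02, 7.82 and 8.31 in the wild type, without overlap. It fell by 1.12 (SE 0.22), with limma's adjusted p at 0.00914. The adjusted p was 0.0522 without wild-type replicate 3, and 0.0569 without the variance trend. The homeobox genes *HAT3.1* and AT4G03090, known as *NDX*, were not called, with differences of −0.69 and −0.26 at adjusted p of 0.298 and 0.665, and their groups overlapped.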
